A study of Saccharomyces cerevisiae with 16 samples.

Results

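The histone genes of budding yeast were followed across 8 strains with altered FCP1, 3 of which also lacked CDK8. The set was chosen by gene symbol and holds 10 of the 6388 gene probes on the array: HTA1 and HTA2 for histone H2A, HTB1 and HTB2 for H2B, HHT1 and HHT2 for H3, HHF1 and HHF2 for H4, HTZ1 for the H2A variant H2A.Z, and HHO1 for the linker histone H1. Core histones form the protein spool around which DNA is wrapped. In yeast each core histone is encoded by a pair of genes, and each gene lies beside a gene for its partner in the nucleosome and is read in the opposite direction. Their transcription is concentrated in S phase, when new DNA has to be packaged. Outside S phase it is repressed by the HIR complex together with the chaperones Asf1 and Rtt106, while Spt10, Spt21 and the G1/S factor SBF act as activators. HTZ1 is expressed through the cycle, and its product is placed beside promoters by the SWR1 complex.

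Expression was measured on 16 spotted 2-colour arrays, each with RNA of 1 strain set against a common reference pool of unstated genotype. Fcp1 is a phosphatase that acts on the C-terminal tail of the large subunit of RNA polymerase II, and Cdk8 (gene SSN3) is the kinase in Mediator. By their labels the strains were fcp1-mut, the truncations 1:713, 1:666, 1:609 and 1:594, and 1:666, 1:609 and 1:594 with cdk8-del added. The FCP1 allele of each of the 8 strains was tagged with FLAG. No treatment, age of culture beyond mid-log growth, or number of clones is given for any strain. Each strain had 2 arrays, lettered a (strain RNA in Cy3) and b (strain RNA in Cy5), which are not stated to be separate cultures, so p-values measure the spread between arrays and may be technical. There is no CDK8 deletion with full-length FCP1 in the set, so every effect of cdk8-del was measured on a truncated allele. Median signal on the arrays was 292 to 1058 for the strains and 211 to 974 for the reference, with a local background of 41 to 71 in the strain channel. All 10 histone probes were above background on 16 of 16 arrays, and none had a spot near the scanner's limit (0 spots above 60000). Several were far brighter than the array medians. The highest strain signal was 37490 for HTA1, 35860 for HTA2, 34630 for HTB1, 33120 for HTB2 and 30320 for HHF2. It was lowest for HHO1, at 2481.

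The altered genes and a pair of marker genes were read first. On each of the 6 cdk8-del arrays SSN3 failed to reach the background limit. The FCP1 signal was low in the 4 strains with 1:609 or 1:594, between -3.49 and -2.77 on the log2 scale, and lay between -0.31 and -0.20 in the other 4. LYS2, a lysine synthesis gene, was high in the same 4 strains, between 2.73 and 3.40. MET17, a methionine synthesis gene, was at -4.92 to -4.51 in 6 strains but the cdk8-del strains with 1:666 and 1:594 read -0.051 and -0.44. Comparisons of cdk8-del in 1:666 and in 1:594 therefore differ in MET17 as well, while that in 1:609 does not (-4.92 without and -4.64 with cdk8-del). The part of these markers in the histone results was not tested. The mating genes differed too: the 4 alpha-specific genes tested were called lower in 1:609 and in 1:594 than in 1:713, with medians of -2.01 and -1.85, while 0 of 7 a-specific genes were called.

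All values below are log2 ratios of strain over reference, or differences between them, which are set so that the typical gene of an array is at 0, with the standard error from a single limma fit to n = 2 arrays per strain. A gene is said to have risen or fallen at a Benjamini-Hochberg adjusted p under 0.05 over all 6388 probes. It is said to have been called when the adjusted p was under 0.01 and the fold above 1.7, the limits in the series description. The a and b arrays of different strains deviated together, and dye orientation coincides with the letter, so counts from a fit with the letter as a block are given where they differ.

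In the 5 strains with CDK8, the core histone genes lay close to the reference. Their median was -0.11 in fcp1-mut, -0.090 in 1:713, -0.060 in 1:666, 0.043 in 1:609 and 0.074 in 1:594. In the 3 strains without CDK8 it was 0.33 in 1:594 cdk8-del, 0.38 in 1:609 cdk8-del and 0.55 in 1:666 cdk8-del. The medians of all probes were within 0.01 of 0 in each strain, the highest being 0.0057 and the lowest -0.0043. The 5 strains with CDK8 thus formed a low group and the 3 without it a high group. Within the low group the order depended on the gene. For HHF1 the 2 arrays of each strain spanned a range that crossed those of the other 4, whereas both HHT1 arrays of 1:609 lay above those of fcp1-mut, 1:713 and 1:666, and both HHF2 arrays of 1:609 and of 1:594 lay above those of 1:713.

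**Figure D1:**
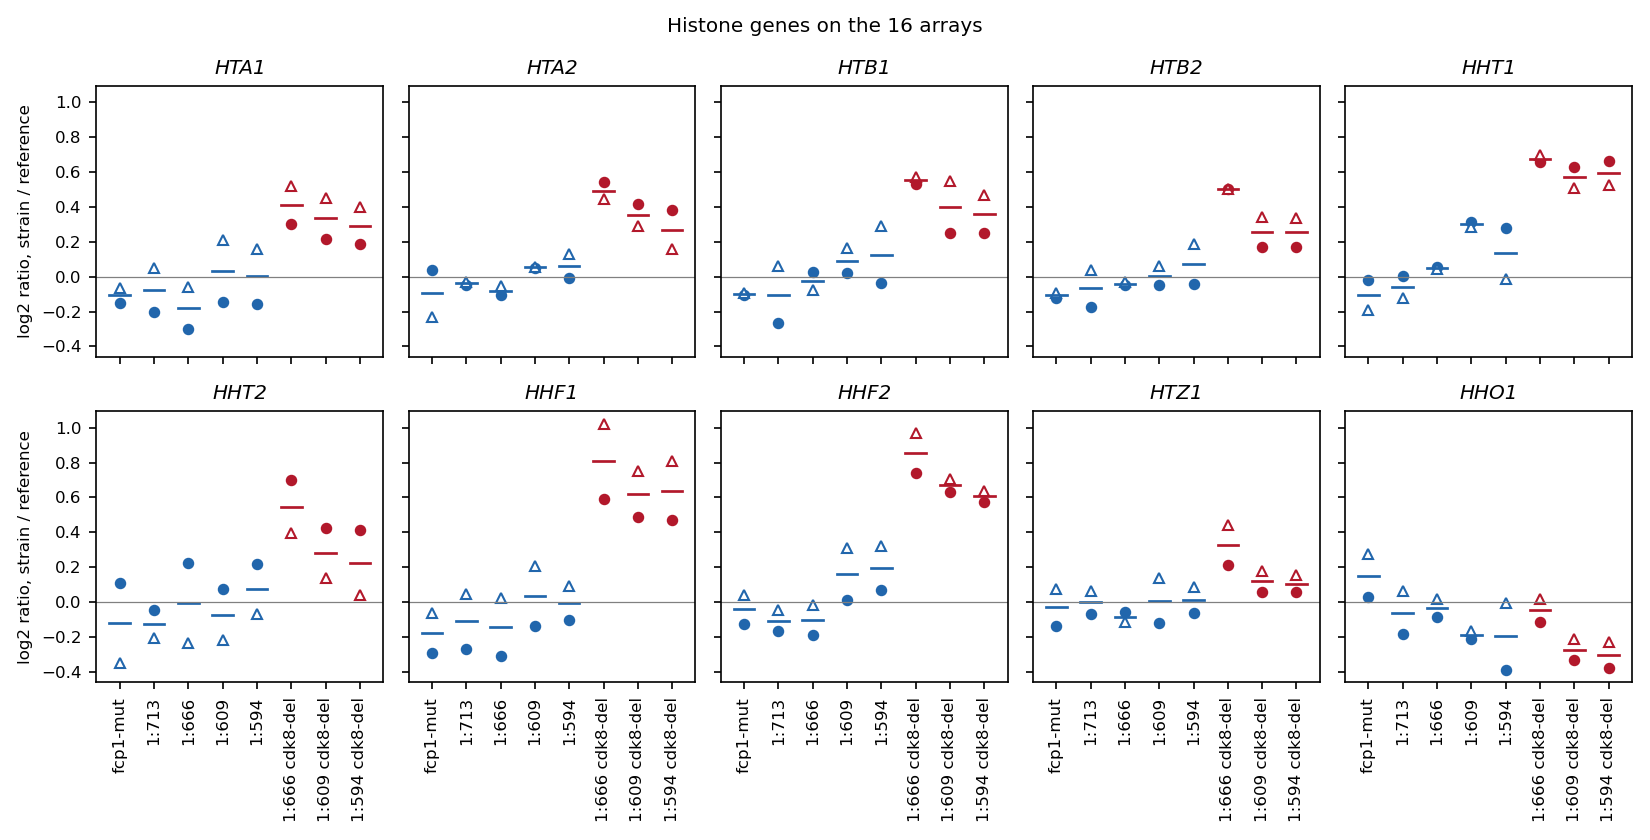
Log2 ratio of strain over reference (vertical axis) for the 10 histone genes on the 16 arrays, by strain (horizontal axis). Filled circles are a arrays, open triangles b arrays and bars the mean of both; blue marks strains with CDK8 and red those with cdk8-del. HTA2, HHT1, HHF1 and HHF2 show 6 red points above all 10 blue ones. The red points of HHO1 (-0.38 to 0.019) lie within the wider range of its blue points (-0.39 to 0.28).

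On the cdk8-del arrays the histone H4 genes reached the highest ratios of the set. HHF2 (YNL030W, chromosome XIV) was at -0.13 and 0.040 on the a and b arrays of fcp1-mut, at -0.17 and -0.047 in 1:713, at -0.19 and -0.019 in 1:666, at 0.0088 and 0.31 in 1:609, and at 0.070 and 0.32 in 1:594. With cdk8-del it was at 0.74 and 0.97 in 1:666, at 0.63 and 0.71 in 1:609, and at 0.57 and 0.64 in 1:594. The lowest array without CDK8 thus stood above the highest array with it. HHF1 (YBR009C, chromosome II) was at -0.29 and -0.063 in fcp1-mut, at -0.27 and 0.044 in 1:713, at -0.31 and 0.023 in 1:666, at -0.14 and 0.21 in 1:609, and at -0.10 and 0.090 in 1:594. Its cdk8-del arrays read 0.59 and 1.02 in 1:666, 0.49 and 0.75 in 1:609, and 0.47 and 0.81 in 1:594, again with no overlap. In every strain the b array of HHF1 was higher than the a array, by 0.19 to 0.43. HHF1 and HHF2 encode the same protein, and HHT1 and HHT2 likewise, so signal from the partner gene at each probe cannot be told apart here.

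Of the histone H3 genes, HHT1 (YBR010W, chromosome II, beside HHF1) also separated the arrays. It was at -0.019 and -0.19 in fcp1-mut, at 0.0039 and -0.12 in 1:713, at 0.057 and 0.046 in 1:666, at 0.31 and 0.29 in 1:609, and at 0.28 and -0.014 in 1:594. The cdk8-del arrays lay between 0.51 and 0.70. HHT2 (YNL031C, chromosome XIV, beside HHF2) had the largest difference between the letters, its a arrays being 0.16 to 0.46 above its b arrays. It spanned 0.041 to 0.70 (median 0.40) on the 6 cdk8-del arrays and -0.35 to 0.22 (median -0.059) on the other 10, so the groups overlapped until arrays of the same letter were compared.

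On the cdk8-del arrays the medians of the H2A and H2B genes lay below those of the H4 genes, while on the arrays with CDK8 they did not all do so. HTA2 (YBL003C, chromosome II) spanned 0.16 to 0.54 (median 0.40) on the 6 cdk8-del arrays and -0.23 to 0.13 (median -0.018) on the other 10, without overlap. HTA1 (YDR225W, chromosome IV) spanned 0.19 to 0.52 (median 0.35) against -0.30 to 0.21 (median -0.10), and its ranges overlapped by the 1:609 b array. HTB1 (YDR224C, beside HTA1) spanned 0.25 to 0.57 (median 0.50) against -0.27 to 0.29 (median -0.0094). HTB2 (YBL002W, beside HTA2) spanned 0.17 to 0.51 (median 0.34) against -0.17 to 0.19 (median -0.043). In both H2B genes the overlap came from the b array of 1:594.

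In all, 4 of the 10 genes (HTA2, HHT1, HHF1 and HHF2) were higher on each of the 6 cdk8-del arrays than on any of the other 10, as were 5.56% of all probes. Against the 6 arrays of the same truncations with CDK8 the count was also 4, beside 7.62% of all probes.

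The variant and linker histone genes did not follow the core genes to the same extent. HTZ1 (YOL012C, chromosome XV) reached 0.21 and 0.44 in 1:666 cdk8-del. It was at 0.059 and 0.18 in 1:609 cdk8-del and at 0.056 and 0.15 in 1:594 cdk8-del, over a range of -0.14 to 0.14 on the 10 arrays with CDK8, so 1:666 cdk8-del was the only strain with both arrays above that range. HHO1 (YPL127C, chromosome XVI) was at 0.028 and 0.28 in fcp1-mut, at -0.18 and 0.061 in 1:713, at -0.086 and 0.016 in 1:666, at -0.21 and -0.16 in 1:609, and at -0.39 and -0.0037 in 1:594. With cdk8-del it was at -0.11 and 0.019 in 1:666, at -0.34 and -0.21 in 1:609, and at -0.38 and -0.23 in 1:594. The lowest arrays of HHO1 therefore came from 1:609 and 1:594, with and without CDK8.

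Each strain was then tested against the reference. By the limits of the series description, HHF1 (0.81 ± 0.14, adjusted p 0.0014) and HHF2 (0.85 ± 0.090, adjusted p 4.3e-05) were called higher in 1:666 cdk8-del, where 2.99% of all probes were. The count was 0 of 10 in the other 7 strains, where between 0.172% (1:713) and 4.57% (1:594 cdk8-del) of all probes were called in either direction: 0.235% in fcp1-mut, 0.626% in 1:666, 3.12% in 1:609, 2.25% in 1:594 and 3.73% in 1:609 cdk8-del. At an unadjusted p under 0.05 limma gave 0 of 10 in fcp1-mut, 1:713, 1:666 and 1:594, and 1 in 1:609. It gave 8 in both 1:609 cdk8-del and 1:594 cdk8-del, of which 7 were higher in each and HHO1 was lower. The share of all probes at the unadjusted limit was not counted, here or below.

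At an adjusted p under 0.05 with no limit on the fold, 9 of the 10 rose in 1:666 cdk8-del, against 16.9% of all probes. The same count was 7 in 1:609 cdk8-del (17.0% of probes) and 6 in 1:594 cdk8-del (18.2%). All 8 core genes and HTZ1 made up the 9. HHT2 and HTZ1 did not pass in 1:609 cdk8-del, nor did these and HTA1 in 1:594 cdk8-del. With the letter as a block the counts were 9 in 1:609 cdk8-del (30.1% of probes) and 8 in 1:594 cdk8-del (31.3%). In that fit HHT2 (adjusted p 0.00025) and HTZ1 (adjusted p 0.046) passed in 1:609 cdk8-del, and HHT2 (adjusted p 0.0013) and HTA1 (adjusted p 5.5e-05) in 1:594 cdk8-del. HHT1 was the 1 member that rose in a strain with CDK8, at 0.30 ± 0.073 in 1:609 (adjusted p 0.0088, 15.6% of probes higher). With the letter as a block, small differences also passed in strains with CDK8: HHF1 was lower in fcp1-mut (1 of 10, 9.55% of probes), HTA1 and HHF1 in 1:666 (2 of 10, 20.5%), and HHO1 in 1:609 (30.3%) and 1:594 (28.6%). HHT1 and HHF2 were higher in 1:609 (2 of 10, 30.3%) and in 1:594 (2 of 10, 29.2%) in that fit. Without the block, HHO1 fell in 1:609 cdk8-del (-0.27 ± 0.097, adjusted p 0.0499, 17.0% of probes lower) and in 1:594 cdk8-del (-0.30 ± 0.097, adjusted p 0.031, 17.2%). Without its own b array, 1:666 cdk8-del had 5 genes that rose and none called, and each of the other 2 double mutants had 3 that rose. A lone array carries 1 dye orientation, and is assumed there to vary like the other strains.

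The mean of the 8 strains against the reference was called for 0 of 10 (0.908% of probes in either direction). At an adjusted p under 0.05, HTA2, HTB1, HTB2, HHT1, HHF1 and HHF2 were higher in that mean, between 0.11 and 0.28, as were 28.9% of probes (9 genes and 40.0% of probes with the block), and HHO1 was lower at -0.12 ± 0.034 (26.9%). The mean mixes strains with and without CDK8. Its direction turned for all 6 of these genes when arrays were scaled on the external control spots, which moved the median of all probes in it from 0.0075 to -0.29. In 1:594 cdk8-del it put HTA2 at -0.0067 and HTB2 at -0.021, beside a median of all probes of -0.28.

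Among strains with CDK8, the histone genes differed little from 1:713. The strains 1:609 and 1:594 also differ from 1:713 in LYS2 and in the alpha-specific genes, and this part was not tested. No histone gene was called against 1:713 in fcp1-mut, 1:666, 1:609 or 1:594, where 0%, 0.0470%, 1.97% and 1.27% of all probes were called in either direction. At an unadjusted p under 0.05 limma gave 0, 0, 1 and 1 of 10. The core median was 0.13 in 1:609 and 0.17 in 1:594 against 1:713, with all 8 genes above 0 in both. HHT1 rose in 1:609 (0.36 ± 0.10, adjusted p 0.036), as did 7.17% of probes. With the letter as a block, HHT1 and HHF2 rose in 1:609 (2 of 10, 21.0% of probes) and HHT1, HHT2 and HHF2 in 1:594 (3 of 10, 19.7%). HHF2 was 0.26 ± 0.13 higher in 1:609 and 0.30 ± 0.13 higher in 1:594, with adjusted p of 0.20 and 0.16 in the fit without the block. HHO1 was -0.13 ± 0.14 in 1:609 and -0.14 ± 0.14 in 1:594, and HTZ1 0.0083 ± 0.12 and 0.013 ± 0.12.

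The effect of cdk8-del was measured within each truncation, as the strain without CDK8 minus that with it. In 1:666 the core median was 0.58 and the 8 genes lay between 0.54 and 0.96. HHF2 (0.96 ± 0.13, adjusted p 0.00044) and HHF1 (0.95 ± 0.20, adjusted p 0.0078) were called higher, beside 3.30% of all probes. HHT1 rose by 0.63 ± 0.10, HTA1 by 0.59 ± 0.16, HTB1 by 0.58 ± 0.14, HTA2 by 0.57 ± 0.10, HTB2 by 0.54 ± 0.10 and HTZ1 by 0.41 ± 0.12. HHT2 was 0.55 ± 0.22 higher (adjusted p 0.13, or 4.4e-05 with the block) and HHO1 was at -0.012 ± 0.14. In total 8 of 10 rose in 1:666, against 9.78% of all probes, and with the block 9 of 10, HHT2 included, against 21.6%. Leaving out 1 array of 1:666 gave 4 (without a) or 5 (without b), and leaving out the b array of 1:666 cdk8-del gave 4. The count of calls fell from 2 to 1 for 10 of the 16 arrays left out.

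In 1:609 and 1:594 the core genes were again higher without CDK8, by less. The core median was 0.30 in 1:609 (range 0.25 to 0.59) and 0.26 in 1:594 (range 0.15 to 0.65). No histone gene was called in either, where 1.63% and 2.14% of all probes were. At an unadjusted p under 0.05 limma gave 5 and 3 of 10. HHF2 rose in 1:609 (0.51 ± 0.13, adjusted p 0.038), the only 1 of 10, against 4.70% of probes. HHT1 rose in 1:594 (0.46 ± 0.10, adjusted p 0.019), again 1 of 10, against 5.56% of probes. HHF1 was 0.59 ± 0.20 higher in 1:609 and 0.65 ± 0.20 higher in 1:594, with adjusted p of 0.12 and 0.076. Either count of 1 fell to 0 when single arrays were left out. Those were, for HHF2 in 1:609, the a array of 1:609 and both arrays of 1:713, 1:609 cdk8-del and 1:594 cdk8-del, and for HHT1 in 1:594 the b array of 1:594 and the a array of 1:594 cdk8-del.

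Removing the shared difference between letters raised both counts. With the letter as a block, 8 of 10 rose in 1:609 (16.1% of probes) and 5 of 10 in 1:594 (18.1%). The 8 were the core genes, and the 5 were HTA1, HTB2, HHT1, HHF1 and HHF2. In 1:609 the blocked adjusted p was 1.5e-05 for HHF1 and 7.6e-05 for HHF2, beside 0.12 and 0.038 without the block.

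Compared array by array, with letter and truncation held the same, the 8 core genes and HTZ1 were higher with cdk8-del in 6 of 6 comparisons. The share of all probes higher in 6 of 6 was not counted, so this count is a description only. HHF1 differed by 0.55 to 1.0, HHF2 by 0.32 to 0.99 and HHT1 by 0.22 to 0.65. Among the others the lowest differences were 0.029 for HTA2, 0.040 for HTZ1 and 0.11 for HHT2. HHO1 was higher in 2 of 6, between -0.22 and 0.0090.

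**Figure D2:**
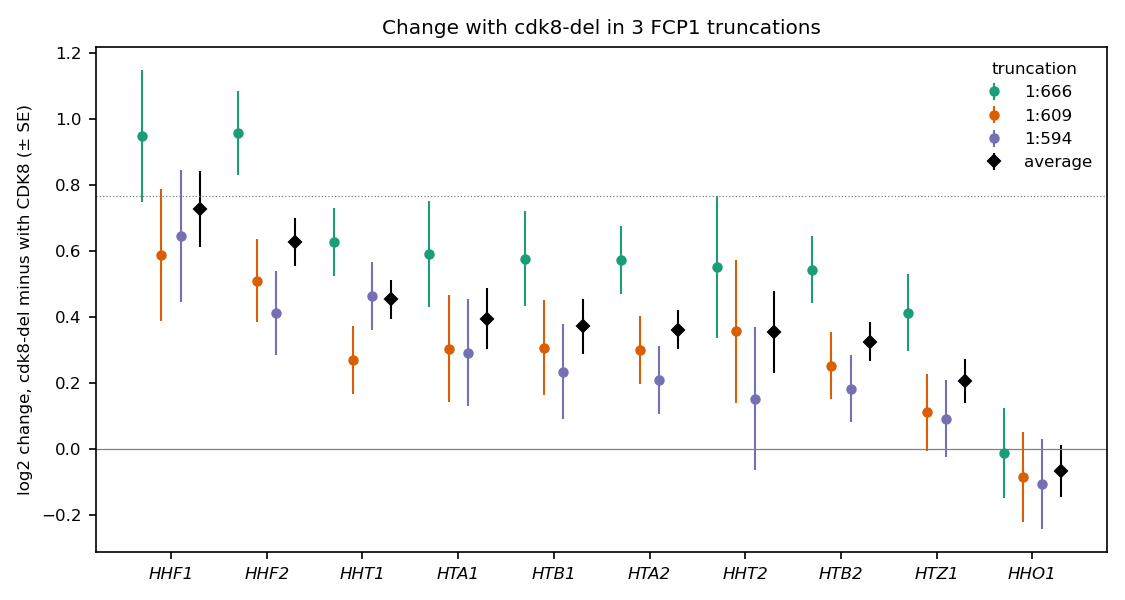
Change with cdk8-del (log2, vertical axis) of each histone gene in 1:666, 1:609 and 1:594 and on average over them, with bars of 1 standard error. The dotted line marks the fold of 1.7, which HHF1 and HHF2 passed in 1:666. The 1:666 point is the highest of the 3 truncations for each of the 10 genes.

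Whether the effect differed between truncations was tested on the difference itself. All 8 core genes had smaller effects in 1:609 and in 1:594 than in 1:666, with medians of -0.29 and -0.35. The largest difference was that of HHF2 between 1:594 and 1:666, at -0.55 ± 0.18 (adjusted p 0.34). In the fit without the block, no member passed an adjusted p of 0.05 or was called in any of the 3 differences. The share of all probes called was 0.0157% (1:609 minus 1:666), 0.157% (1:594 minus 1:666) and 0.125% (1:594 minus 1:609). The share at an adjusted p under 0.05 in that fit is not given here. At an unadjusted p under 0.05 limma gave 2, 3 and 0 of 10. With the letter as a block, HHF1 and HHF2 had a smaller effect in 1:609 than in 1:666 (2 of 10, 4.77% of probes lower). In 1:594 against 1:666 the blocked fit gave 5 of 10 (HTA1, HTB2, HHT2, HHF1 and HHF2, 5.18% of probes lower), and for 1:594 against 1:609 it gave 0 of 10. The 1:666 and 1:666 cdk8-del strains also differ in MET17, as do 1:594 and 1:594 cdk8-del, and this part was not tested.

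Averaged over the 3 truncations, 8 of the 10 histone genes were higher in the cdk8-del strains, against 14.5% of all probes. The pairs with 1:666 and 1:594 in this average also differ in MET17, and this part was not tested. The H4 genes led, with HHF1 at 0.73 ± 0.12 (adjusted p 0.00083) and HHF2 at 0.63 ± 0.073 (adjusted p 0.00010), or 1.66-fold and 1.54-fold. HHT1 followed at 0.45 ± 0.060 (adjusted p 0.00024). HTA1 rose by 0.40 ± 0.093, HTB1 by 0.37 ± 0.083, HTA2 by 0.36 ± 0.059 and HTB2 by 0.33 ± 0.059, with adjusted p between 0.0011 and 0.0094. HTZ1 rose by 0.21 ± 0.067 (adjusted p 0.044). HHT2 was 0.35 ± 0.12 higher with an adjusted p of 0.059, which became 1.0e-05 with the letter as a block, making 9 of 10 against 28.3% of probes. HHO1 was at -0.068 ± 0.079 (adjusted p 0.59, or 0.18 with the block). None was called in the average, since none reached the fold of 1.7, beside 2.71% of all probes in either direction. Leaving out 1 array at a time gave 7 to 9 genes that rose.

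**Figure D3:**
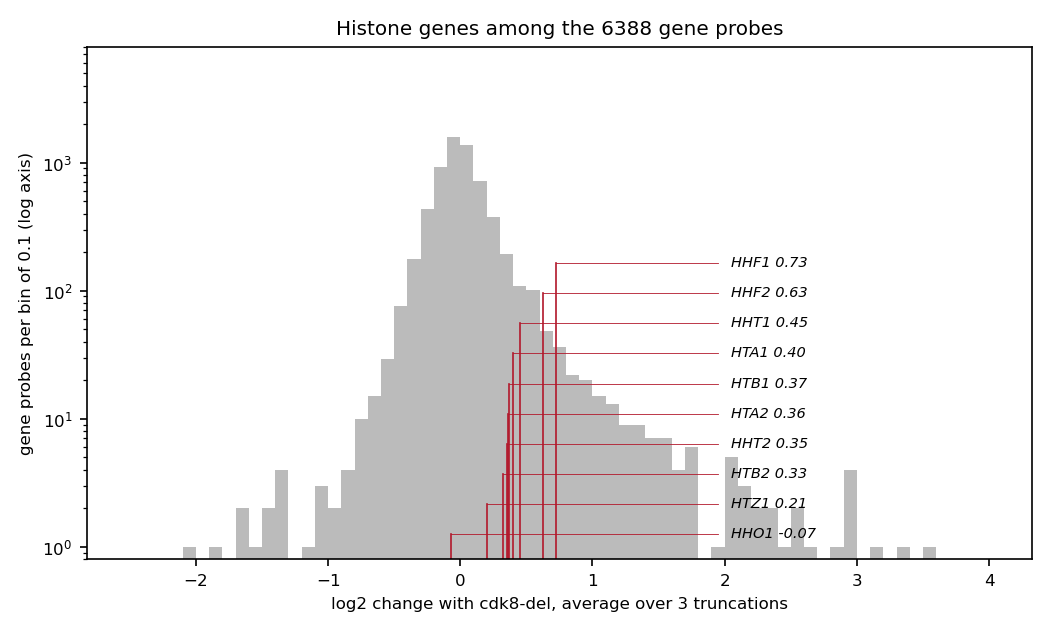
Distribution of the average change with cdk8-del over the 6388 gene probes (grey, bins of 0.1 on the log2 scale, counts on a log axis), with the 10 histone genes as red lines of arbitrary height. The core genes lie between 0.33 and 0.73, right of the peak at 0, HTZ1 at 0.21 and HHO1 at -0.07.

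The scaling of the arrays bears on these counts. With each array centred on its median and no correction along intensity, 1 of 10 rose in the average in place of 8, although all 9 genes above 0 stayed so, from 0.11 for HTZ1 to 0.60 for HHF1. By that scaling 1 rose in 1:666 (in place of 8) and none was called there, and against the reference 2, 1 and 1 rose in 1:666, 1:609 and 1:594 cdk8-del (in place of 9, 7 and 6). The share of all probes that rose by median centring is not given here. These lower counts therefore cannot be set apart from a loss over all probes. On the external control spots the median of all probes moved to 0.21 in the average, 0.29 in 1:666, 0.33 in 1:609 and 0.030 in 1:594, and the core medians to 0.60, 0.87, 0.64 and 0.30.

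Within the core set, members of a nucleosome partner pair differed in size. HHF1 exceeded HHT1, with which it shares a promoter region, by 0.27 in the average change, and HHF2 exceeded HHT2 by the same 0.27. The H2A and H2B partners differed less, by 0.023 for HTA1 over HTB1 and by 0.035 for HTA2 over HTB2. Copies of a histone differed by 0.10 for H4, 0.10 for H3, 0.034 for H2A and 0.047 for H2B. The differences between members were not tested.

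Over the 16 arrays, with the mean of each letter removed, the 8 core genes correlated with each other at r of 0.85 to 0.98. HTZ1 correlated with them at 0.76 to 0.87 and HHO1 at -0.64 to -0.31. These are descriptions over arrays that share strains and the reference pool. Of the named genes outside the set, those most like the core mean were MCR1 (r 0.98), which encodes a mitochondrial cytochrome b5 reductase, YOL153C (0.98), STF1 (0.97), which encodes a regulator of the mitochondrial ATP synthase, MTC4 (0.97) and YMR196W (0.97). Their average changes with cdk8-del were 1.07 for MCR1, 0.50 for YOL153C, 1.20 for STF1, 0.16 for MTC4 and 1.52 for YMR196W. For HTZ1 the likeness was highest with NPC2 (0.95), TPS3 (0.92), YJR096W (0.91), GLK1 (0.91) and COA4 (0.91). GLK1 encodes glucokinase and TPS3 a subunit of trehalose synthase. For HHO1 it was highest with NUP100 (0.92), a nuclear pore gene, INP52 (0.92), GEP5 (0.91), CSR1 (0.91) and SUR2 (0.91). None of these 15 genes belongs to the lists of histone regulators or cell cycle genes used here.

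For the genes known to control histone transcription or to handle histones, list medians lay near 0 in the cdk8-del average, while single genes moved in either direction. Of the 15 genes for the HIR complex and histone chaperones, 0 were called and 0 passed an adjusted p of 0.05 in either direction, with a median of -0.022 beside -0.0050 over all probes. POB3, a subunit of the FACT chaperone, was at -0.16 ± 0.056 (adjusted p 0.064), NAP1 at -0.15 ± 0.090, HIR2 at -0.12 ± 0.052 and RLF2, of the CAF-1 chaperone, at 0.066 ± 0.051. Of 14 activators and other regulators, 0 were called, 1 rose and 2 fell (12.2% of all probes fell), with a median of 0.034. MCM1, which encodes a transcription factor, rose by 0.21 ± 0.048 (adjusted p 0.0076). SPT10 (-0.12) and FKH1 (-0.17) were those that fell, named after their values were seen, and SPT21 was at 0.10 ± 0.052. YTA7, also named after its value was seen, was at 0.33 ± 0.115 (adjusted p 0.057), in the range of the core genes.

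Of 18 genes of the SWR1 and INO80 complexes, which exchange Htz1, 0 were called, 1 rose and 2 fell, with a median of -0.068. SWR1 itself rose by 0.18 ± 0.034 (adjusted p 0.0026), while ARP5 and SWC7, named after their values were seen, were the 2 that fell. The 5 other chromatin proteins with a probe had no call, none passed an adjusted p of 0.05, and their median was -0.011. Among them CSE4, which encodes the centromeric H3 variant, was at -0.097 ± 0.038 (adjusted p 0.086).

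Cell cycle genes were read because histone transcription follows the cycle. Of 27 G1/S genes, 0 were called, 3 rose and 5 fell with cdk8-del on average, beside 14.5% of all probes that rose and 12.2% that fell, and their median was -0.033. PCL1, a G1 cyclin gene, rose by 0.17 ± 0.051, whereas RNR1, for ribonucleotide reductase, was at -0.033 ± 0.044 and CDC21, for thymidylate synthase, at -0.067 ± 0.053. The others that rose were PCL2 (0.38 ± 0.038, adjusted p 3.0e-05) and CLN1 (0.26 ± 0.069, adjusted p 0.016). Of the 5 that fell, PRI1 was the lowest, at -0.21 ± 0.039. PCL2, CLN1 and PRI1 are named after their values were seen. Of 15 G2/M genes, 0 were called and 3 fell (12.2% of all probes), with a median of -0.029. The mitotic cyclin gene CLB2 fell by 0.16 ± 0.052 (adjusted p 0.043), and CLB1 was at 0.38 ± 0.14 (adjusted p 0.065). The others that fell were ASE1 (-0.50 ± 0.095, adjusted p 0.0026) and KIN3 (-0.20 ± 0.040, adjusted p 0.0036), named after their values were seen. Of 19 M/G1 genes, 0 were called and 6 fell (12.2% of all probes), with a median of -0.12. EGT2 (-0.48 ± 0.072) and DSE2 (-0.31 ± 0.042), both expressed in daughter cells after division, were among them.

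**Figure D4:**
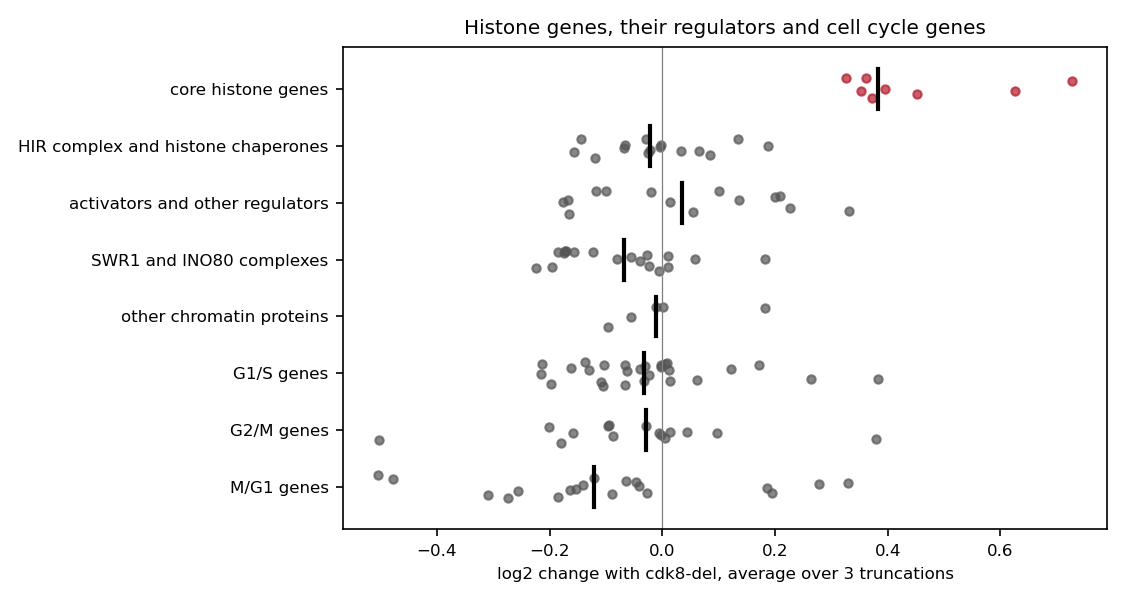
Average change with cdk8-del (log2, horizontal axis) of the core histone genes (red) and of the genes in 7 other lists (grey), 1 point per gene, with bars at the medians. The 8 core genes lie between 0.33 and 0.73, with a median of 0.38, and the medians of the other lists lie between -0.12 and 0.034.

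Some cell cycle genes also moved with the truncations. Against 1:713, 3 of 19 M/G1 genes were called lower in 1:609 (FAR1, DSE2 and SCW11) and 2 in 1:594 (FAR1 and DSE2), and the medians of the list were -0.47 and -0.39. FAR1, which encodes an inhibitor of the cyclin-dependent kinase, was at -1.12 ± 0.20 in 1:609 and -1.10 ± 0.20 in 1:594. CLB2 was called lower in 1:609 (-0.83 ± 0.090). The G1/S list had 0 calls in either, with medians of -0.029 and -0.019. The alpha-specific genes fell in the same strains (above), and the part of strain background in these falls was not tested.

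The chromosomal neighbours of the histone genes were read last. Of the 12 genes with a probe that lie next to a histone gene and are not histone genes themselves, 0 were called with cdk8-del on average, and their median was -0.096. They ranged from -0.41 for NAN1, beside HHO1, to 0.67 for ECM15, beside HTB2. ECM15 rose (0.67 ± 0.12, adjusted p 0.0018), as did HRD1, beside HTZ1 (0.22 ± 0.062, adjusted p 0.025). UTP20, on the other side of HTA2 and HTB2, fell by 0.33 ± 0.072 (adjusted p 0.0059), and NAN1 fell too (adjusted p 0.00030). ADK1 (-0.24 ± 0.059, adjusted p 0.012) and CRF1 (-0.19 ± 0.054, adjusted p 0.022), beside HTA1 and HTB1, also fell. Over all probes 14.5% rose and 12.2% fell in that average. At HHT1 and HHF1 the neighbours FLR1 and IPP1 were at -0.020 ± 0.074 and -0.078 ± 0.054. At HHT2 and HHF2 the neighbours SIW14 (-0.11 ± 0.038, adjusted p 0.046) and KTR5 (-0.19 ± 0.040, adjusted p 0.0056) fell.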

How the data were processed

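The raw scanner files deposited by the authors hold an intensity and a local background for every spot and channel, per the file headers. The matrix the authors deposited holds log2 ratios, scaled on total mRNA per the series description; the sources used here do not give its background treatment. Isolation differed between strain and reference RNA, per the labels' protocols. Background was corrected by normexp (offset 50). Ratios were taken as strain over reference on the log2 scale, the lowess trend of an array (span 0.4, 3 robust iterations, fitted on its 12776 gene spots) was removed, and the 2 spots per probe were averaged. All 6388 probes were fitted at once in limma 3.58.1 under R 4.3.3, with 1 mean per strain over 16 arrays (8 residual and 2.57 prior degrees of freedom). From the fit 20 contrasts were taken. Tests are two-sided with Benjamini-Hochberg adjustment within a contrast, and the pipeline was tested on simulated data. The number of arrays limits the precision.

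Of the probes, 5326 had 1 gene symbol, and all of these matched the RefSeq table of assembly R64, used for names, chromosomes and neighbours; 60 symbols were updated. Promoter and protein sequences were not analysed here. The difference between the a and b arrays correlated between strains at 0.60 to 0.91 (28 of 28 pairs over 0.1). The pairing comes from the letters, which also mark the dyes.

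The members and gene lists were chosen with earlier results of these data known, and so was the second limit (adjusted p under 0.05). All 10 members are named. List genes are named where called in any contrast. Otherwise at most 4 per list are named, those farthest from 1:713 in the strains with 1:609 or 1:594. Genes said to be named after their values were seen fall outside that rule. ECM15, UTP20 and the other neighbours are named by position. Likeness is Pearson's correlation over 16 arrays with letter means removed, 5 genes each. Figures were drawn with matplotlib 3.10.9 and pandas 2.3.3 under Python 3.11.15. Alternatives were other background corrections, scalings, spots, filters, call limits, the deposited values, the letter as a block, and each array left out.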

Additional observations from a re-analysis of the deposited data

How the results depend on the processing

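Over 490 repeats of the 49 member results at an adjusted p under 0.05 (10 settings that leave out no array), 412 kept direction and side of the limit, 69 lost the limit and 9 turned. Of 784 repeats that left out 1 array, 720 kept both, 64 lost the limit and 0 turned. Called members (2 in 1:666 cdk8-del against the reference, 2 for cdk8-del in 1:666, otherwise 0) became 0 and 0 with median centring. With print-tip lowess 1 was called in 1:594 cdk8-del and 1 in the average of cdk8-del. On the external control spots the counts were 0 in 1:666 cdk8-del, 7 for cdk8-del in 1:666, 2 in 1:609 and 2 in the average, and with the authors' deposited log2 ratios 1 in 1:666 cdk8-del and 1 in the average. The external control scaling also moved the median of all probes, to 0.29 for cdk8-del in 1:666, 0.33 in 1:609 and 0.21 in the average. No share of all probes stands beside the member counts in this paragraph, so they only describe the settings. With no fold limit, either direction, they were 9 in 1:666, 8 in 1:609 and 7 in 1:594 cdk8-del, 7 in the mean of the 8 strains, 1 in 1:609 against the reference and against 1:713, and 8, 1, 1 and 8 for cdk8-del in 1:666, 1:609, 1:594 and on average. Members higher at an adjusted p under 0.05 (9, 7 and 6 in the double mutants, 6 in the mean of the 8 strains, 8, 1 and 1 for cdk8-del in each truncation, 8 on average) became 2, 1, 1, 1, 1, 0, 0 and 1 with median centring. On the external control spots they were 3 in 1:609 and 3 in 1:594 cdk8-del, 0 in the mean of the 8 strains, and 7 and 0 for cdk8-del in 1:609 and 1:594. For the same 2 effects the authors' deposited values gave 5 and 2 and the replicate block gave 8 and 5; plain background subtraction gave 0 in 1:609 and print-tip lowess 2 in 1:594. Leaving out 1 array gave 0 to 2 called in 1:666 cdk8-del, 1 to 2 for cdk8-del in 1:666 and 0 to 1 in the average. Members higher ranged over 5 to 9, 3 to 7 and 3 to 6 in the double mutants, and over 4 to 8, 0 to 1 and 0 to 1 for cdk8-del in 1:666, 1:609 and 1:594. The 9 that turned were, on the external control spots, HTA2 (-0.0067) and HTB2 (-0.021) in 1:594 cdk8-del, and HTA2 (-0.18), HTB1 (-0.14), HTB2 (-0.19), HHT1 (-0.031), HHF1 (-0.094) and HHF2 (-0.023) in the mean of the 8 strains, where the authors' deposited values also put HTB2 at -0.0066. That scaling moved the median of all probes by -0.50 to -0.10 in the strains; the cause of the other changes was not tested. The replicate block changed no other count of members by more than 1.5 times apart from those given with the results. Among all probes, those called against the reference went from 15 to 23 in fcp1-mut and from 11 to 18 in 1:713. Slide and scan were not run as a block, since the files used here name none.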
